A study of Rattus norvegicus with 4 samples.

Results

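Genes annotated as long noncoding RNA were described in glomeruli of male Wistar rats injected intravenously with Adriamycin (ADR, doxorubicin), a DNA-binding anthracycline that injures podocytes and produces a nephrotic syndrome in rodents. They were chosen by the biotype that the deposited table gives, namely lincRNA (148 genes), processed_transcript (40 genes) or antisense (10 genes), which makes 198 of the 13261 genes used. All 4 samples carry the treatment label ADR and form a single group, with glomeruli isolated by sieving and polyadenylated RNA sequenced in stranded libraries. No untreated or otherwise treated rats were analysed here, so no value below has a direction relative to health. The labels do not say whether each sample is a separate rat, so spread and p-values here are between samples and may be partly technical. They give a body weight range but no age, and name more than one harvest day without assigning one to these samples.

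Long noncoding RNAs are transcripts that carry no long open reading frame and are not translated into a known protein. Those between genes are called lincRNAs, and those transcribed from the opposite strand of another gene are called antisense RNAs. The class processed_transcript is a remainder for spliced transcripts without an annotated reading frame, and it can hold noncoding models of a locus that also makes protein. Many long noncoding RNAs act in the nucleus, as scaffolds of nuclear bodies or as partners of chromatin regulators, and many are expressed at low levels. Selection of polyadenylated RNA keeps spliced, polyadenylated members of the class and depletes others.

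The label was first set against the gene names. RefSeq (assembly GRCr8) held 26 of the 198 genes under the same or an older symbol, and listed 6 of them as lncRNA and 20 as protein coding. Of these 20, 18 came from the processed_transcript class and 2 from lincRNA. No other row of the table carried any of the 198 symbols, so reads for a gene such as Itgb5 were listed under the noncoding biotype alone. The 20 genes are called coding-named genes here, and 6 of them were among the 10 genes with the most reads. The other 172 genes had no RefSeq entry under their name, and 152 of the 198 bore the name of a genomic clone or contig. For the coding-named genes the biotype goes against the current annotation, and results are given with and without them. Of 37 well-known long noncoding RNAs on the lists used, only Tug1 had values; the other 36, Malat1, Neat1, Meg3, H19 and Gas5 among them, were not analysed here.

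The windows from 250 bases before to 50 bases after the RefSeq start are printed for 4 genes, from RefSeq on GRCr8. Tug1 is shown as the single widely studied long noncoding RNA, Top2b as a coding-named gene that was even between samples, and Itgb5 and Astn1 as coding-named genes that were uneven. Capitals mark matches, on either strand, to the CCAAT box or to the GC box, spelled GGGCGG. The TATA box, spelled TATAAA, was searched too and was in none of these windows.
Tug1, chr14:82750485-82750784, minus strand: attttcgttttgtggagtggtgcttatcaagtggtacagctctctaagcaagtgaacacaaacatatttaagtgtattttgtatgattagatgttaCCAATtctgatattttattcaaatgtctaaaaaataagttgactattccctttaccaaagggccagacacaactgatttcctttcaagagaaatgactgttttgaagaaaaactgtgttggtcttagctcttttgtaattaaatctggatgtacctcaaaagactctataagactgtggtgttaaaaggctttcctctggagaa
Top2b, chr15:11542415-11542714, minus strand: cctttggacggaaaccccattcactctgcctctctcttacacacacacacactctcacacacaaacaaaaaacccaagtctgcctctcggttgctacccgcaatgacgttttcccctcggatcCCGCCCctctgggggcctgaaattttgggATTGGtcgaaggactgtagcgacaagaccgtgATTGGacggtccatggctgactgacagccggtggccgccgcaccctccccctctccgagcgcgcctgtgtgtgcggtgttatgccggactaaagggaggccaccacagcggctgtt
Itgb5, chr11:80449324-80449623, minus strand: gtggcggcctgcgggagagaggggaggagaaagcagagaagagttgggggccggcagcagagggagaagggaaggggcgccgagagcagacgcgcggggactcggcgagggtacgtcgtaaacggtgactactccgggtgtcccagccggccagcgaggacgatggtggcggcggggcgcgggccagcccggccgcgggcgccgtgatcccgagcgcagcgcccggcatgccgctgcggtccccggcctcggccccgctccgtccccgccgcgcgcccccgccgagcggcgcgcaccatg
Astn1, chr13:73071017-73071316, plus strand: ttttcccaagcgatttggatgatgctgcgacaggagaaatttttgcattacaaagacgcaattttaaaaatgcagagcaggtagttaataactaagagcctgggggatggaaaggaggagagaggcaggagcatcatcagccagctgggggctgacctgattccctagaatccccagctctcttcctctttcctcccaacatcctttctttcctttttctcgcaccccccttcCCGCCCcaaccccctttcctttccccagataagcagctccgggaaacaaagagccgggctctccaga
Over the 33469 promoter windows of the same length in RefSeq, 37.5% held the CCAAT box, 33.1% the GC box and 14.2% the TATA box. The Tug1 window held the CCAAT box at 1 place and no GC box, and its GC content was 34.0%, against a median of 51.7% over all windows. The Top2b window held the CCAAT box at 2 places and the GC box at 1. The Itgb5 window held neither and had 45 CpG dinucleotides, where the upper quartile over all windows was 19. Astn1 had the GC box at 1 place and 7 CpG dinucleotides, the median of all windows. The uneven pair therefore differed from each other in base composition, and a match of letters is a description of these windows only.

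Replicates 1 to 4 carried between 13566962 and 16207027 reads in the genes used, and the labelled tissue could be checked against defining markers. All 7 podocyte markers were measured, with a summed level of 6821, 3877, 4967 and 5921 CPM (reads scaled to a library total of 1000000) in replicates 1 to 4. The 3 endothelial markers with values summed to 3280, 3416, 4354 and 3582 CPM, and each of them (Ehd3, Emcn and Kdr) was highest in replicate 3. The 3 mesangial markers summed to 1544, 1606, 1673 and 1965 CPM, but they went opposite ways in replicate 2. Des was highest there, with 701, 1117, 872 and 1014 CPM. Itga8, with 389, 182, 296 and 439 CPM, and Pdgfrb, with 454, 308, 505 and 512 CPM, were lowest there. Markers of cells outside the glomerulus were present as well. The 3 proximal tubule markers summed to 3811, 2773, 1925 and 3185 CPM, the 3 distal nephron markers to 545, 389, 495 and 460 CPM, most of it Umod, and the 2 erythroid markers to 714, 898, 1325 and 919 CPM. Aqp2, another distal nephron marker, went the other way from Umod, with 24.1, 59.4, 46.1 and 33.8 CPM. The 3 leukocyte markers summed to 703, 845, 728 and 639 CPM, most of it Cd74, which was highest in replicate 2. Ptprc, with 48.4, 66.1, 108 and 70.8 CPM, and Cd3e, with 1.18, 1.48, 3.32 and 2.49 CPM, were highest in replicate 3, as were both erythroid markers. The podocyte sum was thus highest in replicate 1 and lowest in replicate 2, as were 6 of the 7 markers; Cdkn1c went the other way, with 415, 493, 530 and 494 CPM. The proximal tubule sum was highest in replicate 1 and lowest in replicate 3. All 3 of its markers were lowest in replicate 3, but Slc34a1 was highest in replicate 4, with 1749, 1537, 1119 and 1818 CPM. In bulk tissue, fewer cells of a type and less RNA per cell cannot be told apart.

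Levels of the class were low. The median gene had a mean of 2.71 on the log2 CPM scale, with quartiles of 2.03 and 3.96, and 101 reads averaged over samples; the median protein_coding gene had 4.92 log2 CPM and 461 reads. By class, the medians were 2.55 log2 CPM for lincRNA, 2.34 for antisense and 4.32 for processed_transcript genes. Without the coding-named genes the median was 2.58, and the coding-named genes themselves had 5.71. CPM is not divided by transcript length, and lengths are not in the table, so an order of genes by CPM is an order of reads, not of molecules. Only 13 genes of the class (6.57%) had a mean above 100 CPM, compared with 16.9% of protein_coding genes. Of these 13, 7 were coding-named, and without the coding-named genes it was 6 of 178 (3.37%). In all 198 genes at least 8 reads were found in each sample, and the lowest averaged 19.25 reads. Whether low genes were filtered before deposit is not given in the sources used here, so the 198 are the genes of these biotypes that the table lists.

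**Figure D1:**
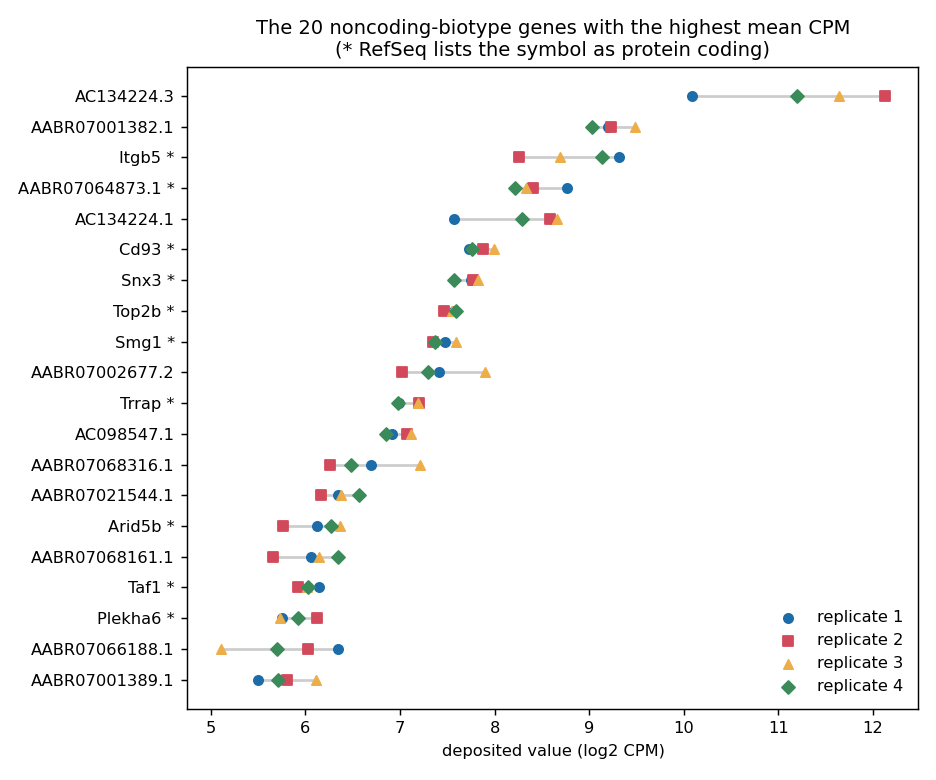
The deposited log2 CPM (horizontal axis) in each of the 4 samples for the 20 genes of the class with the highest mean CPM, with grey lines from the lowest to the highest sample. AC134224.3 lies apart at the top, between 10.09 and 12.13, and 10 of the 20 genes carry symbols that RefSeq lists as protein coding.

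The reads of the class were concentrated in a few genes. The gene with the most reads took 34.3% of the summed mean CPM, the first 10 took 68.0% and the first 50 took 88.8%. All 198 genes together took 0.645% of the listed reads for replicate 1, with 0.957%, 0.881% and 0.758% for the others in order. Their mean was 0.810% ± 0.137 (SD, n = 4). The 95% Wilson intervals, 0.641% to 0.650%, 0.953% to 0.962%, 0.877% to 0.886% and 0.753% to 0.762%, did not overlap. They cover counting error alone. Without AC134224.3 the share was 0.533% ± 0.023 (SD, n = 4), and ran from 0.509% in replicate 2 to 0.563% in replicate 3. Replicate 1 then no longer had the lowest share, and the highest sample exceeded the lowest 1.11-fold, compared with 1.48-fold with that gene included. The coding-named genes took 0.215% ± 0.018 (SD, n = 4), with 0.239% in replicate 1 and 0.195% in replicate 2.

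**Figure D2:**
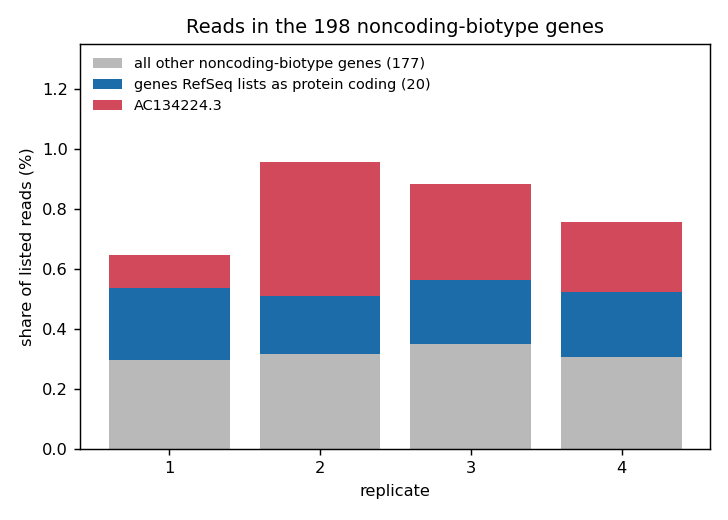
Share of all listed reads (vertical axis, percent) that fell in the 198 genes, by sample, stacked as AC134224.3, the 20 coding-named genes and the other 177 genes. The red part, AC134224.3, is 0.109% in replicate 1 and 0.448% in replicate 2, while the blue and grey parts together lie between 0.509% and 0.563%.

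AC134224.3 (ENSRNOG00000062158), a lincRNA named for the clone it was annotated on, had 1091, 4479, 3186 and 2355 CPM in replicates 1 to 4. Replicate 2 was highest and replicate 1 lowest, a 4.10-fold difference carried by 72591 and 14803 reads. Its mean of 2778 CPM stood at percentile 99.9 of all genes. Another pair of lincRNAs bears the same clone name. AC134224.1 had 191, 383, 403 and 313 CPM, and AC134224.2 had 36.6, 50.8, 63.5 and 47.9 CPM. In all 3 genes replicate 1 was lowest and replicate 4 next, whereas the top sample was replicate 2 for AC134224.3 and replicate 3 for AC134224.1 and AC134224.2.

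Some other RNA classes were also uneven in these libraries. The 5 genes of the rRNA biotype had 360, 2574, 1568 and 703 reads in replicates 1 to 4, in the same order of samples as AC134224.3. The 13 protein-coding mitochondrial genes took 7.46%, 12.5%, 9.34% and 7.56% of reads, again in that order. The collecting duct marker Aqp2 had this order too, but the other distal nephron markers did not. Umod was highest in replicate 1 and lowest in replicate 2, and Slc12a1, with 91.5, 94.2, 102 and 106 CPM, was highest in replicate 4. The 7 mitochondrial rRNA and tRNA genes took 0.165%, 0.308%, 0.317% and 0.179%. The part of these RNAs, or of the cells they mark, in the difference of the AC134224 genes was not tested. How reads that match several places were counted is not given in the sources used here, so values of genes with near-identical copies are uncertain.

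Next in reads came AABR07001382.1 (ENSRNOG00000018960), a clone-named processed_transcript with 589, 602, 718 and 522 CPM. Its samples differed by 1.38-fold, beyond counting error (chi-square test on reads, adjusted p = 1.72e-106). Its SD was 0.991 times the median of protein_coding genes of like mean, a typical spread for its level. AABR07002677.2, a lincRNA, had 170, 130, 239 and 158 CPM. AABR07068316.1, a processed_transcript, had 104, 76.6, 149 and 89.3 CPM. These last genes shared their order, with replicate 3 highest, then 1, 4 and 2. All 3 endothelial and both erythroid markers were also highest in replicate 3, as were the leukocyte markers Ptprc and Cd3e but not Cd74, and their part in these differences was not tested.

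Tug1 (taurine upregulated 1; ENSRNOG00000051135) is a conserved lincRNA first described in the retina and since studied in podocytes, where it has been linked to mitochondrial function. It had 45.3, 41.0, 49.1 and 49.99 CPM in replicates 1 to 4, or 46.4 ± 4.12 CPM (SD, n = 4). The 4 samples differed by 1.22-fold from lowest to highest. This exceeded counting error (chi-square test on reads, adjusted p = 0.00119), but not the spread of genes of like mean: its SD was 0.895 times that of protein_coding genes in its range. Tug1 stood at percentile 63.6 of all genes by CPM and was number 24 of the 198.

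The other 5 genes that RefSeq also lists as lncRNA were less abundant. LOC100909912 had 11.0, 12.7, 11.7 and 12.3 CPM. LOC102549726 had 7.67, 14.4, 10.9 and 13.8 CPM. LOC102555924, LOC103692984 and LOC102553190 averaged 5.71, 4.16 and 1.28 CPM. LOC100909912 was within counting error (adjusted p = 0.591, chi-square test on reads), whereas LOC102549726 was lowest in replicate 1 and beyond it (adjusted p = 3.32e-07). Neither was beyond the dispersion trend of all genes, the test described below.

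Several of the more abundant coding-named genes differed little between samples. Top2b, which encodes DNA topoisomerase II beta, an enzyme that doxorubicin traps on DNA, had 191, 176, 187 and 193 CPM. These values lay within 1.10-fold, and its SD of 0.06 on the log2 CPM scale was among the 5 smallest of the 162 genes with a mean of at least 50 reads. At its depth the difference was still beyond counting error (chi-square test on reads, adjusted p = 0.005). Cd93, a transmembrane glycoprotein of endothelial cells, had 212, 235, 254 and 216 CPM. Snx3, a sorting nexin of endosomal recycling, had 215, 219, 227 and 191 CPM. Smg1, the kinase that phosphorylates Upf1 in nonsense-mediated decay, had 178, 163, 193 and 166 CPM. Each of these differed between samples by no more than 1.20-fold.

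Itgb5 (ENSRNOG00000001795), the beta 5 integrin subunit that pairs with integrin alpha V, was uneven. It had 639, 305, 413 and 562 CPM, so that replicates 1 and 4 were high and replicate 2 was lowest, 2.09-fold below replicate 1. AABR07064873.1, for which RefSeq gives the current symbol Syne2 (nesprin-2, which links the nuclear envelope to the cytoskeleton), had 437, 339, 322 and 298 CPM, with replicate 1 highest. Astn1 (ENSRNOG00000005667), the membrane protein astrotactin 1, had 52.8, 25.3, 23.1 and 52.8 CPM. Replicates 1 and 4 were thus alike and both above replicates 2 and 3, 2.29-fold from highest to lowest. Ly6al (ENSRNOG00000037374), named as a member of the Ly6 family, went the other way, with 7.44, 27.2, 14.1 and 8.33 CPM and a peak in replicate 2.

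Further coding-named genes, of which 5 are given here, encode regulators of transcription or RNA. Trrap, a scaffold of histone acetyltransferase complexes, had 127, 148, 146 and 126 CPM. Taf1, the largest subunit of TFIID, had 70.6, 60.7, 64.6 and 65.1 CPM. Rc3h1, the RNA-binding protein roquin-1, had 54.5, 38.2, 47.7 and 45.4 CPM. Arid5b, a DNA-binding transcriptional regulator, had 69.7, 54.4, 82.2 and 77.3 CPM, and Gtf2ird2, of the TFII-I family, had 10.8, 14.4, 16.2 and 11.0 CPM. Trrap and Taf1 had SDs below the median of protein_coding genes of like mean, with ratios of 0.83 and 0.65, whereas Rc3h1, Arid5b and Gtf2ird2 had ratios of 1.45, 1.89 and 1.32. None of the 5 was beyond the dispersion trend. The remaining coding-named genes ran down to Vwa3b, at 4.70 ± 1.62 CPM (SD, n = 4).

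All 10 antisense genes were of low abundance, from AABR07037436.1 at 9.68 CPM to AC120237.1 at 1.29 CPM on average. AABR07037436.1 was even, with 10.1, 9.19, 9.25 and 10.2 CPM. AC120237.1 had 23, 35, 8 and 12 reads, so its 4.14-fold range rests on few counts. AABR07044362.4, with 7.52, 3.21, 4.23 and 7.61 CPM, and AC141145.1, with 11.9, 5.99, 6.38 and 8.79 CPM, were higher in replicates 1 and 4. AC128900.1 had 2.73, 5.37, 5.02 and 7.35 CPM and was lowest in replicate 1. The antisense genes had the largest spread of the 3 classes relative to coding genes of like mean, with a median ratio of 1.61, but they number only 10. Of these, 0 were called at the fixed trend and 0 with limma at an adjusted p under 0.05, where 7.52% and 0% of all genes were. At an unadjusted p under 0.05 the numbers were 4 and 0, where 15.9% and 5.47% of all genes passed. Whether the counting used strand is not given in the sources used here, so reads of an antisense gene and of its sense partner cannot be told apart.

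The spread between samples was then compared with protein_coding genes of like mean, in ranges of 1 unit of log2(CPM + 1). The median SD of the 198 genes was 0.24, and that of all protein_coding genes 0.17, a gap that does not take the lower levels of the class into account. Between 2 and 3, where 72 of the 198 genes lay, the median SD was 0.26 for the class and 0.23 for 1467 protein_coding genes. Between 3 and 4 it was 0.23 and 0.20, and between 5 and 6 it was 0.23 for 14 genes against 0.14. Between 7 and 8 the order was reversed, at 0.12 for 7 genes against 0.15, and 5 of those 7 were coding-named. Without them the median of the remaining 2 genes was 0.25, above that of the protein_coding genes. It is the midpoint of AABR07002677.2 at 0.37 and AC098547.1 at 0.13, so only 1 of the 7 genes was above the protein_coding median.

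Each gene's SD was divided by the median SD of the protein_coding genes in its range. The ratio had a median of 1.18, with quartiles of 0.795 and 1.72, and was above 1 for 123 of 198 genes. For protein_coding genes in the same ranges the quartiles were 0.662 and 1.51. A ratio above 2 was found for 33 genes, or 16.7%, compared with 12.8% of protein_coding genes. Without the coding-named genes the median ratio was 1.20, and for those genes alone it was 1.04. These are descriptions over genes, which are not replicates, and no test was made of the difference.

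**Figure D3:**
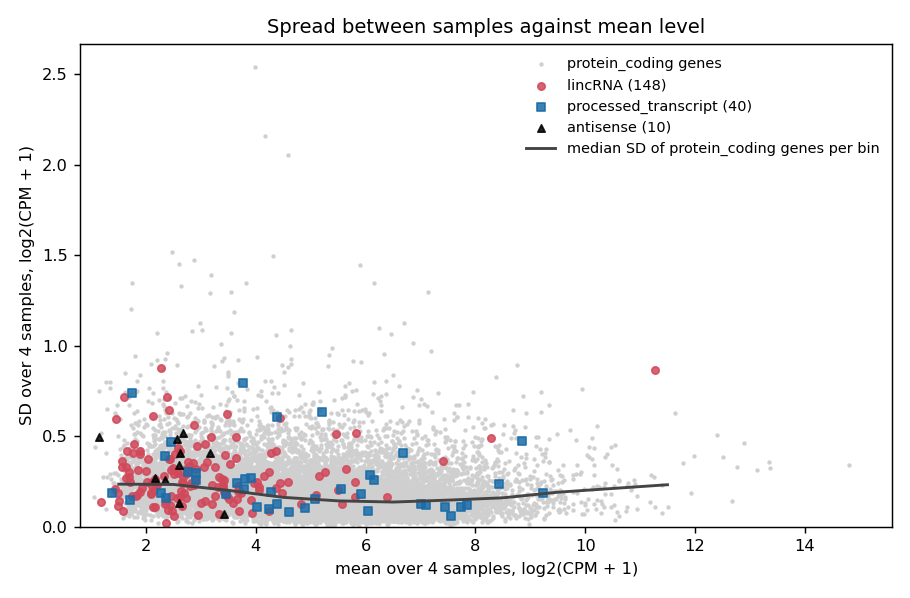
SD over 4 samples (vertical axis) against the mean over 4 samples (horizontal axis), both of log2(CPM + 1), for protein_coding genes in grey and the 3 noncoding classes in colour, with the median of protein_coding genes in each range of 1 unit that holds a gene of the class. Most genes of the class sit at the left and within the grey cloud, and AC134224.3 stands alone at a mean of 11.27 and an SD of 0.87.

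Variation beyond counting error was found for 134 of the 198 genes (chi-square test on reads, Benjamini-Hochberg adjusted p under 0.05 over all genes), or 67.7%, where the share was 69.5% over all 13261 genes and 70.0% over protein_coding genes. The class was near the background. Without the coding-named genes it was 117 of 178, or 65.7%. The test detects less in genes with few reads, and the class has fewer reads than protein_coding genes. Among genes with a mean of at least 50 reads it was 119 of 162, or 73.5%, against 71.6% of all genes. Of the 198 genes, the other 64 were not distinguishable from counting error at this depth. Among them was AABR07021465.2, with 55, 68, 64 and 64 reads, the smallest SD of the genes with at least 50 reads on average, at 0.02 log2 CPM. AABR07044388.3, AABR07070131.1 and LOC103689920 were within counting error too, and their CPM ranged by no more than 1.14-fold.

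Excess variance relative to genes of like abundance was tested in a pair of ways. With limma's trended prior, 0 of the 198 genes passed an adjusted p under 0.05, as did 0% of all genes. The smallest adjusted p in the class was 0.912. That prior, with 3.787 degrees of freedom, was estimated from the variances of these same genes. With 4 samples few calls could be made, so 0 calls do not show evenness. At an unadjusted p under 0.05, 16 of 198 passed, or 8.08%, compared with 5.47% of all genes and 5.42% of protein_coding genes. The second test, chosen with limma's 0 calls known, set the reads against a negative binomial dispersion trend held fixed. This test gives genes of like mean reads 1 shared dispersion, so its small p-values also reflect how genes differ in dispersion. It called 21 of the 198 genes, or 10.6%, where 7.52% of all genes and 7.44% of protein_coding genes were called. At an unadjusted p under 0.05 it passed 40, or 20.2%, compared with 15.9% of all genes and 15.8% of protein_coding genes. Without the coding-named genes it called 18 of 178.

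Fewer genes were called by the fixed trend when any replicate was removed, in the class and over all genes. Without replicate 1 it was 13 of 198 (6.57%, against 5.01% of all genes), without replicate 2 it was 10 (5.05% against 5.38%), without replicate 3 it was 11 (5.56% against 4.48%) and without replicate 4 it was 13 (6.57% against 4.72%). The share of the class was below that of all genes without replicate 2 and above it in the other 3 fits. Only Astn1 and AABR07026778.1 kept their call in each of these 4 fits and under every other setting tried.

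Astn1 had an adjusted p of 4.06e-08 at the fixed trend. AABR07026778.1 (ENSRNOG00000061436), a lincRNA, had 463, 247, 207 and 393 reads, or 34.1, 15.2, 13.5 and 25.8 CPM (adjusted p = 2.56e-05). Both genes ran 1, 4, 2 and 3 from the highest to the lowest replicate. The summed proximal tubule markers had the same order, as did Lrp2 and Slc5a12 singly, while Slc34a1 was highest in replicate 4, and their part in these differences was not tested. Ly6al had an adjusted p of 2.62e-09, and 0.171 without replicate 2. AC134224.3 had 6.04e-06, and 0.0813 without replicate 1. Itgb5 had 0.0376, and between 0.0543 and 0.487 when any single sample was left out.

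The uneven lincRNAs were of several kinds. AABR07008030.1 (ENSRNOG00000051672) had the largest SD among genes with at least 50 reads on average, 1.15 log2 CPM. Its 102, 22, 40 and 99 reads gave 7.52, 1.36, 2.61 and 6.49 CPM, high in replicates 1 and 4 (adjusted p = 0.000534 at the fixed trend, and 0.118 without replicate 2). AABR07006724.1, with 108, 29, 54 and 82 reads, had the same order of samples (adjusted p = 0.00755, 0.107 without replicate 1 and 0.281 without replicate 2). AABR07059258.1, with 219, 92, 125 and 209 reads, did so too (adjusted p = 0.00233, 0.175 without replicate 2). This order, 1, 4, 3 and 2 from highest to lowest, is also that of the summed podocyte markers (6 of the 7 singly) and of Itgb5. The mesangial markers Itga8 and Pdgfrb were lowest in replicate 2 as well, whereas Des was highest there. The part of podocyte or mesangial RNA in these differences was not tested.

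Others had replicate 1 highest or replicate 3 lowest. AABR07002969.1 had 71.5, 39.2, 30.1 and 41.2 CPM, with replicate 1 highest (adjusted p = 1.38e-05, 0.493 without replicate 1). AC126641.1, a processed_transcript, had 83, 22, 30 and 23 reads (adjusted p = 2.97e-05, 1.00 without replicate 1). AABR07066188.1 had 81.5, 65.0, 34.4 and 51.9 CPM, lowest in replicate 3 (adjusted p = 0.000115, 0.150 without replicate 3). Replicate 3 also had the lowest summed proximal tubule markers, and their part here was not tested.

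A further set was low in replicate 1 or high in replicate 3. AABR07035839.1, a processed_transcript, had 11.3, 30.5, 17.4 and 25.8 CPM (adjusted p = 0.00043, 0.0541 without replicate 1). AABR07071383.1 had 26, 103, 60 and 100 reads and an adjusted p of 0.0399, which passed the threshold in none of the fits without 1 sample (0.0612 to 0.643). AABR07068316.1 had an adjusted p of 0.000397, with 0.0787 without replicate 2 and 0.696 without replicate 3. AABR07002677.2 had 0.0241, with 0.168, 0.862 and 0.0854 without replicates 2, 3 and 4. AC134224.1 had 0.0239, with 0.967, 0.0639 and 0.0706 without replicates 1, 3 and 4. AABR07071383.1 thus lost its call whichever sample was removed, and AABR07002677.2 and AC134224.1 in 3 of the 4 fits, each of which holds fewer samples.

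**Figure D4:**
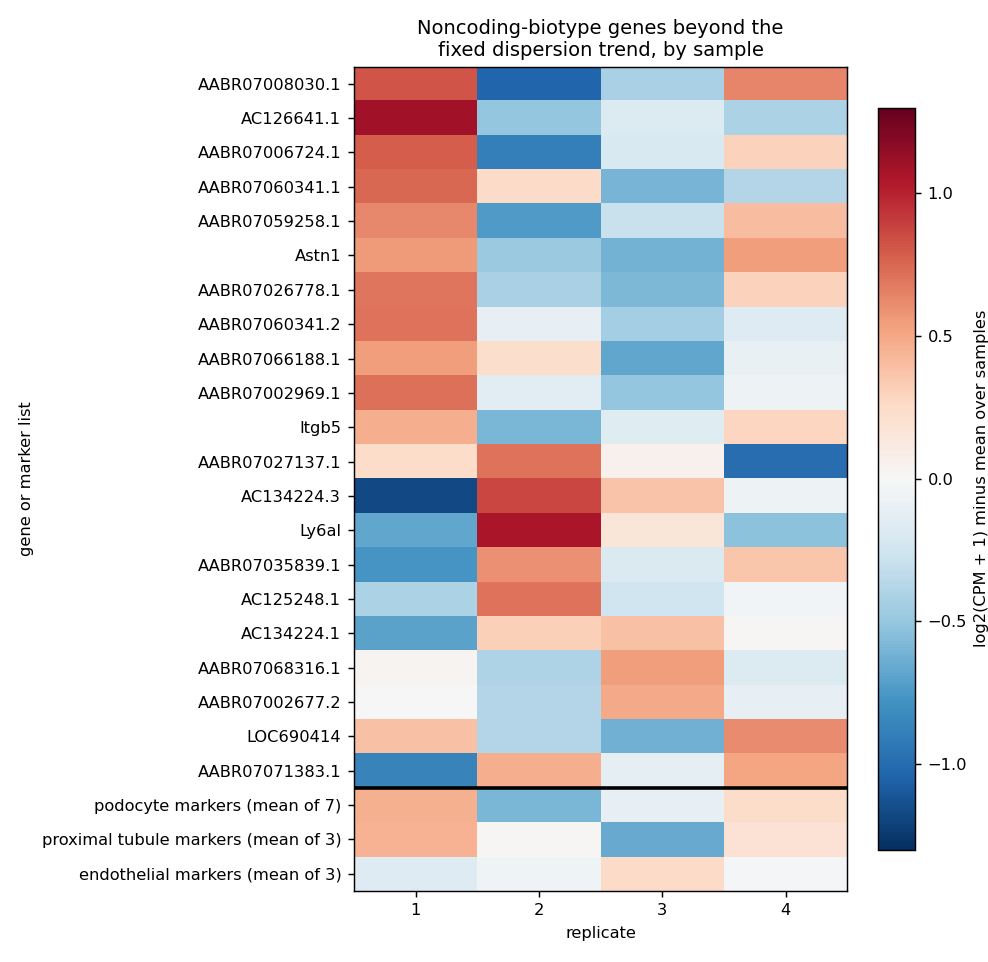
Colour gives log2(CPM + 1) minus its mean over the 4 samples (columns) for the 21 genes called at the fixed dispersion trend (rows), with the mean of the podocyte, proximal tubule and endothelial markers below the black line. Replicate 1 is the highest sample in the first 11 rows, and the podocyte row is also highest in replicate 1 and lowest in replicate 2.

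Of the 21 genes called, 11 were highest in replicate 1, 5 in replicate 2, 3 in replicate 3 and 2 in replicate 4. Among the 951 protein_coding genes called by the same test, 54.2% were highest in replicate 1, and 17.7%, 14.7% and 13.5% in replicates 2, 3 and 4. From highest to lowest sample, the 21 genes differed by 1.84-fold to 7.52-fold. The widest range belonged to AABR07027137.1, which had 35, 64, 33 and 8 reads; it lay outside the naming rule and was chosen after its values were seen. Its adjusted p of 0.0222 at the fixed trend became 0.109 without replicate 2 and 0.743 without replicate 4.

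Genes annotated on the same clone or contig, as their names show, were set side by side. There were 6 clones with at least 2 genes of the class, 14 genes in all. The 3 lincRNAs of AABR07060341 were each highest in replicate 1 and next in replicate 2. AABR07060341.1 had 86, 68, 29 and 36 reads, AABR07060341.2 had 261, 170, 125 and 153, and AABR07060341.3 had 133, 130, 78 and 71. The first 2 were called at the fixed trend (adjusted p = 0.0165 and 0.00675), and the last was not (adjusted p = 0.133). Without replicate 1 the first 2 had 0.293 and 1.00, and without replicate 3 0.228 and 0.129. AABR07060341.1 had 0.125 without replicate 4. The AABR07044635 pair, with 64, 101, 73 and 94 reads and 50, 106, 66 and 71 reads, shared its order by CPM, 2, 4, 3 and 1. Both AABR07058985 genes were highest in replicate 3 by CPM but differed in the order of the other samples. In the clones AABR07049695 and AABR07044388 the highest sample differed. AABR07049695.2, with 47, 42, 53 and 61 reads, was highest in replicate 4 by CPM, and AABR07049695.3, with 99, 141, 169 and 138 reads, in replicate 3. AABR07044388.2, with 151, 229, 189 and 140 reads, was highest in replicate 2, and AABR07044388.3 in replicate 3. No gene of the class on AABR07044635, AABR07058985, AABR07049695 or AABR07044388 was called at the fixed trend. The table does not show whether such neighbouring annotations are separate transcripts.

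Coding genes whose proteins work with long noncoding RNAs were measured in the same libraries as background. All 7 paraspeckle proteins on the list had values, and their summed CPM ran from 1292 to 1446. Hnrnpk, an RNA-binding protein of paraspeckles, was highest at 422 ± 18.8 CPM, and Pspc1, a core paraspeckle protein, was lowest at 23.7 ± 2.91 CPM (SD, n = 4). All 8 core proteins of small nucleolar ribonucleoproteins had values, from Dkc1, the pseudouridine synthase dyskerin, at 151 ± 31.9 CPM to Gar1 at 12.4 ± 1.93 CPM. The 10 genes of nuclear and nonsense-mediated decay ran from Smg1, listed under the noncoding biotype as described above, to Zcchc8, a subunit of the nuclear exosome targeting complex, at 39.7 ± 4.00 CPM. Of these 25 genes, 6 of 7, 7 of 8 and 9 of 10 were beyond counting error, where 69.5% of all genes were. At the fixed trend and with limma, 0 of the 25 were called at an adjusted p under 0.05, where 7.52% and 0% of all genes were. At an unadjusted p under 0.05 the numbers were 1 and 0, where 15.9% and 5.47% of all genes passed.

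The genes with the lowest means marked the end of the class. AABR07072853.5 had 28, 20, 25 and 23 reads, and LOC102553190 had 20, 22, 20 and 15. Both were within counting error (adjusted p = 0.394 and 0.704, chi-square test on reads). In total, 36 of the 198 genes, or 18.2%, averaged fewer than 50 reads, compared with 4.30% of protein_coding genes, and differences between samples are least detectable there.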

How the data were processed

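Glomerular RNA of 4 samples was read from a single deposited table of log2 values, 1 column per sample matched by title; 0 value columns belonged to no sample. The submitters' processing notes name HISAT2, featureCounts, Subread and limma and the build Rnor_6.0, without versions or roles. Reading the steps of the deposited log2 values showed reads plus 0.5, scaled to CPM, in 100% of values (tolerance 0.01 reads), and the whole reads were recovered. In 4 rows the biotype was a number and the values were displaced; they were left out. CPM uses totals over the 13261 genes. Single totals lie between 13566962 and 16207027 reads, and intervals cover counting error only.

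All tests ran over all genes with Benjamini-Hochberg adjustment at 0.05: a chi-square test of the 4 reads against counting error (df 3), limma 3.58.1 with a trended prior on log2(CPM + 1), and a Pearson statistic at a dispersion set in 40 bins of mean reads. The code was tested on simulated data. The genes, lists and tests were chosen with earlier results of these data known. The design had allowed for counts or log2 values, and the recovered reads were used for the tests on counts. Named genes were the 10 with the highest mean CPM, those on the lists of known noncoding RNAs, the 8 largest and 5 smallest SDs above a mean of 50 reads, up to 10 genes with the smallest p at the fixed trend, the 3 lowest, and the coding partners; further genes named from each class were chosen after their values were seen. Alternatives left out each replicate, used other scalings, pseudocounts, bins and a read filter, and, added after the data were seen, left out coding-named genes or AC134224.3. Gene names were matched to RefSeq for 26 of 198 genes.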

Additional observations from a re-analysis of the deposited data

Results flagged for a closer look

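Of 36 results examined, each with 4 values, 1 passed Dixon's test for a single distant sample, which chance passes in about 1 of 20. AABR07027407.1, a lincRNA, had 42, 118, 120 and 129 reads in replicates 1 to 4. Replicate 1 was the distant sample, and its gap to the nearest other was 0.850 of the whole span. The difference exceeded counting error (adjusted p = 1.81e-07, chi-square test on reads) and was not beyond the fixed dispersion trend (adjusted p = 0.14). Over all 198 genes, 11 (5.56%) met the same criterion, compared with 5.08% of protein_coding genes, and replicate 1 was the distant sample in 5 of the 11.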

How the results depend on the processing

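The number of genes of the class beyond counting error was between 101 and 121 when a replicate was removed (51.01% to 61.11%, against 55.2% to 65.4% of all genes in the same fits), and limma called 0 in every setting tried, with 13 to 16 at an unadjusted p under 0.05. The number called at the fixed trend, 21 with all samples, ran from 10 to 13 without a replicate, where fewer samples enter the fit; without replicates 1 to 4, 11, 10, 11 and 13 of the genes called were among the 21. The share of reads, 0.810%, was 0.595% without the coding-named genes and 0.533% without AC134224.3, as those genes carry that part of the reads. The median SD ratio, 1.18, ran from 1.14 to 1.21 without a replicate; its yardstick was the SD of these values themselves, so this says little. Of 282 comparisons over 36 single genes at the fixed trend, 43 lost the call and 0 gained it, and 19 of 21 called genes lost it in some setting. The 36 genes hold all 21 called genes, and the rest were not picked for lying near the threshold. Losses could therefore show more readily than gains. In the whole class, 13 genes were called without replicate 1, and 11 of them were among the 21. The largest shift by another scaling was 0.05 (log2). No paired analysis was possible because there is a single group. Depth limits the 36 genes with under 50 reads.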
